A study of Mus musculus with 43 samples.

Results

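The 10 genes followed here were taken by name, as the rows of Cd80, Cd86, Cd40, Icosl, Cd274, Pdcd1lg2, Vsir, Havcr2, Cd200 and Cd200r1, out of 55416 genes counted. Their products sit on the surface of antigen-presenting and neighbouring cells and tell a T cell whether to respond or to hold back. RNA was sequenced from 43 libraries of glia acutely purified from the cerebral cortex of 12 mice aged 3 months. The mice formed 6 littermate pairs of a Rag2-/- mouse (the Rag2tm1.1Cgn allele on a C57BL/6 background, without mature T and B cells) and an immunocompetent control, and the study compared them to ask whether lymphocytes shape the state of glia. Controls carried 1 mutant copy (Rag2+/-) in pairs 1, 2, 3 and 5 and none (Rag2+/+) in pairs 4 and 6, and both genotypes were raised in the same facility. Pairs 1, 3 and 4 were male and pairs 2 and 5 female, while pair 6 had a male control and a female Rag2-/- mouse. Microglia and astrocytes were taken from 6 control and 6 Rag2-/- mice each, oligodendrocyte precursor cells (OPCs) from 6 and 5, and oligodendrocytes from 4 and 4 (pairs 1, 3, 5 and 6). Cells were caught on antibody-coated dishes in sequence: CD45 for microglia, PDGFRα for OPCs, GalC for oligodendrocytes and HepaCAM for astrocytes. The CD45 dish can also hold macrophages of the brain's borders and blood.

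A T cell that meets its antigen needs a further signal. CD80 and CD86 give it through CD28, ICOSL through ICOS, and CD40 receives the CD40 ligand of helper T cells and in turn licenses the presenting cell. PD-L1 (Cd274) and PD-L2 (Pdcd1lg2) bind PD-1 and, like VISTA (Vsir) and TIM-3 (Havcr2), restrain the response, while CD200 on one cell quiets the myeloid cell that carries its receptor CD200R1. Microglia are the resident macrophages of the brain and carry several of these proteins at rest, and neurons and other neural cells are the usual carriers of CD200.

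Each library held between 6499417 and 23118497 counts on genes (median 10447042). Levels are given below in CPM, a gene's counts divided by that total and scaled to a common library size, with mitochondrial genes included, and these took 6.76 to 11.7% in microglia against 45.8 to 60.1% in oligodendrocytes. Rag2 had no count in any of the 21 Rag2-/- libraries, but it had only 6 counts in all in the 22 control libraries, so it is a weak check of the labels. The female-expressed Xist matched the labelled sex in all 43 libraries, at 2893 counts or more in the 17 female and 44 or fewer in the 26 male libraries. Libraries of a given cell type were run together on a lane, and effects of lane cannot be told apart from those of cell type. In every macroglial group (astrocytes, OPCs and oligodendrocytes of either genotype) the library of pair 3 had the highest summed CPM of 8 microglia markers. In control and Rag2-/- mice of pair 3 it was 1014 and 996 in OPCs, 798 and 707 in oligodendrocytes and 302 and 255 in astrocytes, beside 8172 to 10306 in microglia libraries. The oligodendrocyte library of control 5 also stood apart, with 75 of the 76 counts of Cd40 in that cell type. In these bulk samples, fewer cells of a type and less RNA per cell cannot be told apart.

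The windows of 300 bases around the start of 2 members are printed first, because 1 is among the abundant members in microglia and 1 is not and because both windows hold both of the motifs searched for. Each runs 5′ to 3′ on the gene's strand from 250 bases before the start of the canonical transcript, in build GRCm39 with GENCODE M39. Capitals mark GAGGAA, a core of the sites bound by the myeloid factor PU.1, or GAAANNGAA, a core of interferon response elements, on either strand.

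Cd86, chr16:36486390-36486689, minus strand: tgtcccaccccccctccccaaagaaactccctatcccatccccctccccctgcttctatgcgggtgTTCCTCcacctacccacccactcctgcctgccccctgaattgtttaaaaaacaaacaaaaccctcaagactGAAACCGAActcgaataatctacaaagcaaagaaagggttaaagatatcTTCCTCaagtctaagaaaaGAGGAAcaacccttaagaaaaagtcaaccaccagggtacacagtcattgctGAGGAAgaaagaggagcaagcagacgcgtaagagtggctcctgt

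Cd274, chr19:29344279-29344578, plus strand: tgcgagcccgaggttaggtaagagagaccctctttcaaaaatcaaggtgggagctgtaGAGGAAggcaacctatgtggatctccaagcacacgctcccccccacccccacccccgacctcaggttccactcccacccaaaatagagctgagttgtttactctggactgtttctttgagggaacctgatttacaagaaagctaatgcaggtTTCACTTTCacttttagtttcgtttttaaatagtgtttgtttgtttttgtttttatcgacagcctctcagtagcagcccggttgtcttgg

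The Cd86 window held 4 matches of GAGGAA and 1 of GAAANNGAA, and that of Cd274 held 1 of each. Over the 10 members GAGGAA was present in 4 (40%), beside 27.6% of all 21627 promoters searched, and GAAANNGAA in 2 (20%), beside 8.78%. A match is a description of the letters only. The genes lie on 5 chromosomes. Cd80 (ENSMUSG00000075122, chr16:38275923-38316697), Cd86 (ENSMUSG00000022901, chr16:36424044-36486443), Cd200 (ENSMUSG00000022661, chr16:45202470-45229594) and Cd200r1 (ENSMUSG00000022667, chr16:44586096-44615343) are on chromosome 16, and Cd274 (ENSMUSG00000016496, chr19:29344529-29365495) and Pdcd1lg2 (ENSMUSG00000016498, chr19:29388319-29448882) are neighbours on chromosome 19. Vsir (ENSMUSG00000020101, chr10:60182630-60208463) and Icosl (ENSMUSG00000000732, chr10:77905136-77919747) are on chromosome 10, Havcr2 (ENSMUSG00000020399, chr11:46345673-46374149) is on chromosome 11 and Cd40 (ENSMUSG00000017652, chr2:164897544-164914868) on chromosome 2. Exons of the opposite strand overlap 19.6% of the exon bases of Cd274 (Plgrkt and Gm36043), 8.38% of Cd80 (Timmdc1 and Gm60172) and 6.80% of Cd200r1 (Gm60988). Since the strand setting of the counting was not given, part of the counts of these 3 genes could belong to their partners.

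The members spanned a wide range of levels in microglia. Per kilobase of exon, the scale on which genes of unequal length can be set side by side, Vsir stood at 107 ± 9.82 CPM per kb (SD, n = 12 libraries of both genotypes), Icosl at 96.2 ± 16.4, Cd86 at 85.7 ± 11.4 and Havcr2 at 79.9 ± 12.5. Lower down were Cd80 at 15.5 ± 2.56, Cd40 at 8.60 ± 1.83 and Cd274 at 7.43 ± 2.11 CPM per kb. Cd200r1 at 0.825 ± 0.447, Cd200 at 0.498 ± 0.395 and Pdcd1lg2 at 0.346 ± 0.428 CPM per kb were lowest. Libraries of neighbouring genes in this order did not overlap at 3 places: between Havcr2 (lowest 56.3) and Cd80 (highest 20.4), between Cd80 (lowest 11.2) and Cd40 (highest 10.7), and between Cd274 (lowest 3.62) and Cd200r1 (highest 1.74). These gaps left 4 sets: Vsir, Icosl, Cd86 and Havcr2, then Cd80 alone, then Cd40 and Cd274, then Cd200r1, Cd200 and Pdcd1lg2. Neighbours within a set had overlapping ranges, so that their order is not settled by these libraries.

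**Figure D1:**
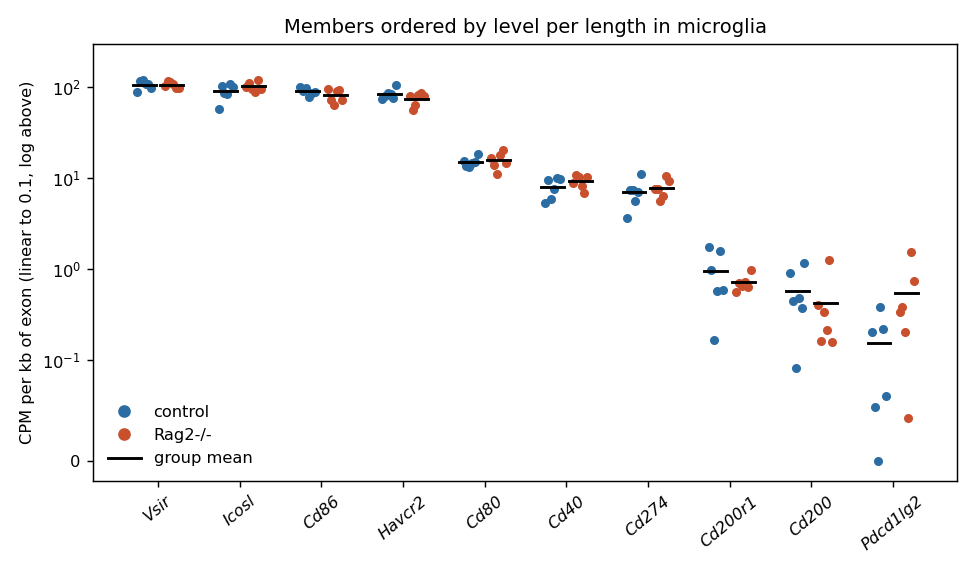
Level of each member in the 12 microglia libraries, in CPM per kilobase of exon (vertical axis, linear to 0.1 and logarithmic above), with genes ordered by their mean, points for libraries coloured by genotype and bars for group means. Vsir, Icosl, Cd86 and Havcr2 lie together at 56.3 or above in every library, and Pdcd1lg2 lies at the bottom with 1 library at 0.

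Cd86, the main ligand for CD28 on resting presenting cells, was read in microglia at 299 to 385 CPM (median 344, n = 6) in controls and at 246 to 367 (median 314, n = 6) in Rag2-/- mice. The ranges of the genotypes overlapped. Outside microglia it was low and uneven: oligodendrocyte libraries of control pairs 1, 3, 5 and 6 gave 7.04, 30.7, 1.78 and 0 CPM, and those of Rag2-/- mice 18.1, 20.6, 0.186 and 6.10. The highest value was that of pair 3 in both, and pair 3 held the highest Cd86 level in 6 of 6 macroglial groups. Cd80, which binds CD28 and the inhibitory CTLA-4, was read in microglia at 55.3 to 75.8 CPM (median 61.6) in controls and 46.2 to 84.4 (median 64.7) in Rag2-/- mice. Its mean in astrocytes was 0.339 ± 0.438 CPM in controls and 0.653 ± 0.562 in Rag2-/- mice (SD, n = 6 each), which is close to the value of 3 counts in a library (0.258 to 0.460 CPM).

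Icosl, whose product engages ICOS on activated T cells, ranged in microglia from 264 to 506 CPM (median 434) in controls and from 409.7 to 558 (median 452) in Rag2-/- mice. Unlike Cd86, it was read in every astrocyte library, at 11.04 to 21.97 CPM (median 17.98) in controls and 15.7 to 35.1 (median 17.6) in Rag2-/- mice. Cd40, the receptor for the CD40 ligand, was read in microglia at 18.2 to 34.6 CPM (median 28.9) in controls and 23.6 to 36.6 (median 32.4) in Rag2-/- mice. Elsewhere it was close to absent. Over 12 astrocyte libraries it had 13 counts in all, 10 of them in Rag2-/- mouse 2, and over 11 OPC libraries 89 counts.

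Vsir, which encodes VISTA, was the most even member in microglia, at 445 to 609 CPM (median 540.4) in controls and 493 to 593 (median 538) in Rag2-/- mice. It was also present in every macroglial library, with 9.59 to 31.4 CPM in astrocytes, 13.3 to 66.0 in OPCs and 4.18 to 42.5 in oligodendrocytes. The oligodendrocyte libraries of control pairs 1, 3, 5 and 6 read 5.22, 42.5, 6.55 and 4.18 CPM, and those of Rag2-/- mice 16.1, 21.6, 24.5 and 16.5. Here the control of pair 3 lay above all 4 Rag2-/- libraries and the other 3 controls below them. Havcr2, which encodes TIM-3, was read in microglia at 364 to 523 CPM (median 400.4) in controls and 274 to 422 (median 392) in Rag2-/- mice. Control 6 gave the highest value. In astrocytes its mean was 2.03 ± 1.35 CPM in controls and 3.83 ± 3.31 in Rag2-/- mice.

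Cd274, which encodes PD-L1, was read in microglia at 14.8 to 45.2 CPM (median 29.3) in controls and 22.98 to 43.4 (median 30.9) in Rag2-/- mice. Its macroglial levels were low but present in every library. Astrocytes gave 1.87 to 5.59 CPM (median 2.95) in controls and 0.965 to 4.38 (median 1.49) in Rag2-/- mice, and OPCs 1.68 to 7.35 (median 4.86) in controls and 5.64, 3.496, 4.00, 3.46 and 0.779 in Rag2-/- mice of pairs 1, 2, 3, 4 and 6. Oligodendrocyte libraries of pairs 1, 3, 5 and 6 gave 0.474, 0.942, 1.55 and 0.0836 CPM in controls and 1.07, 4.56, 0.372 and 0.0735 in Rag2-/- mice. Several of these oligodendrocyte values rest on few counts, the lowest on 1. Pdcd1lg2, the other ligand of PD-1, had 99 counts over the 12 microglia libraries, of which 43 came from Rag2-/- mouse 5. Control libraries held 0 to 9 of them and Rag2-/- libraries 1 to 43. It had 2 counts in all in astrocytes, 4 in OPCs and none in oligodendrocytes. Its mean in microglia, 0.791 CPM, was set against a floor of 3 counts in each library of the other cell types. It was 2.43-fold the floor in astrocytes (0.325 CPM), 2.98-fold that in OPCs (0.265) and 3.06-fold that in oligodendrocytes (0.258). Rag2-/- mouse 5 raised this mean. The median over the 12 microglia libraries was 0.480 CPM and the mean of the controls 0.350, close to the astrocyte floor.

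CD200 and its receptor were distributed in opposite ways. Cd200 was highest in OPCs, at 39.4 to 101 CPM (median 53.7) in controls and 67.2, 32.8, 57.4, 46.1 and 38.0 in Rag2-/- mice of pairs 1, 2, 3, 4 and 6. Oligodendrocyte libraries of pairs 1, 3, 5 and 6 gave 6.32, 12.7, 17.3 and 12.9 CPM in controls and 8.50, 28.8, 15.2 and 9.40 in Rag2-/- mice. Every OPC library thus lay above every oligodendrocyte library, the lowest of the former being 32.8 and the highest of the latter 28.8. Astrocytes had 0.687 to 7.60 CPM and microglia 0.372 to 5.14. The summed CPM of 8 neuron markers was 423 to 788 in control OPCs and 441 to 1665 in control oligodendrocytes. It was 147 to 188 in control astrocytes and 62.6 to 135 in control microglia. In Rag2-/- mice these sums were 430 to 700, 394 to 1280, 126 to 282 and 55.5 to 129. By edgeR 6 of the 8 were higher in oligodendrocytes than in OPCs and 1 was lower, whereas Cd200 was higher in OPCs. The part of neuron RNA in the Cd200 levels was not tested. Cd200r1, the receptor, was read in microglia at 0.558 to 5.85 CPM (median 2.62) in controls and 1.87 to 3.28 (median 2.28) in Rag2-/- mice, from 306 counts in all. Over 12 astrocyte libraries it had 3 counts, which put microglia at least 8.50-fold higher against a floor of 3 counts in each library. Of 24 counts in OPCs 17 were in Rag2-/- mouse 3, and of 41 in oligodendrocytes 15 were, which were all the counts of the 4 Rag2-/- oligodendrocyte libraries.

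**Figure D2:**
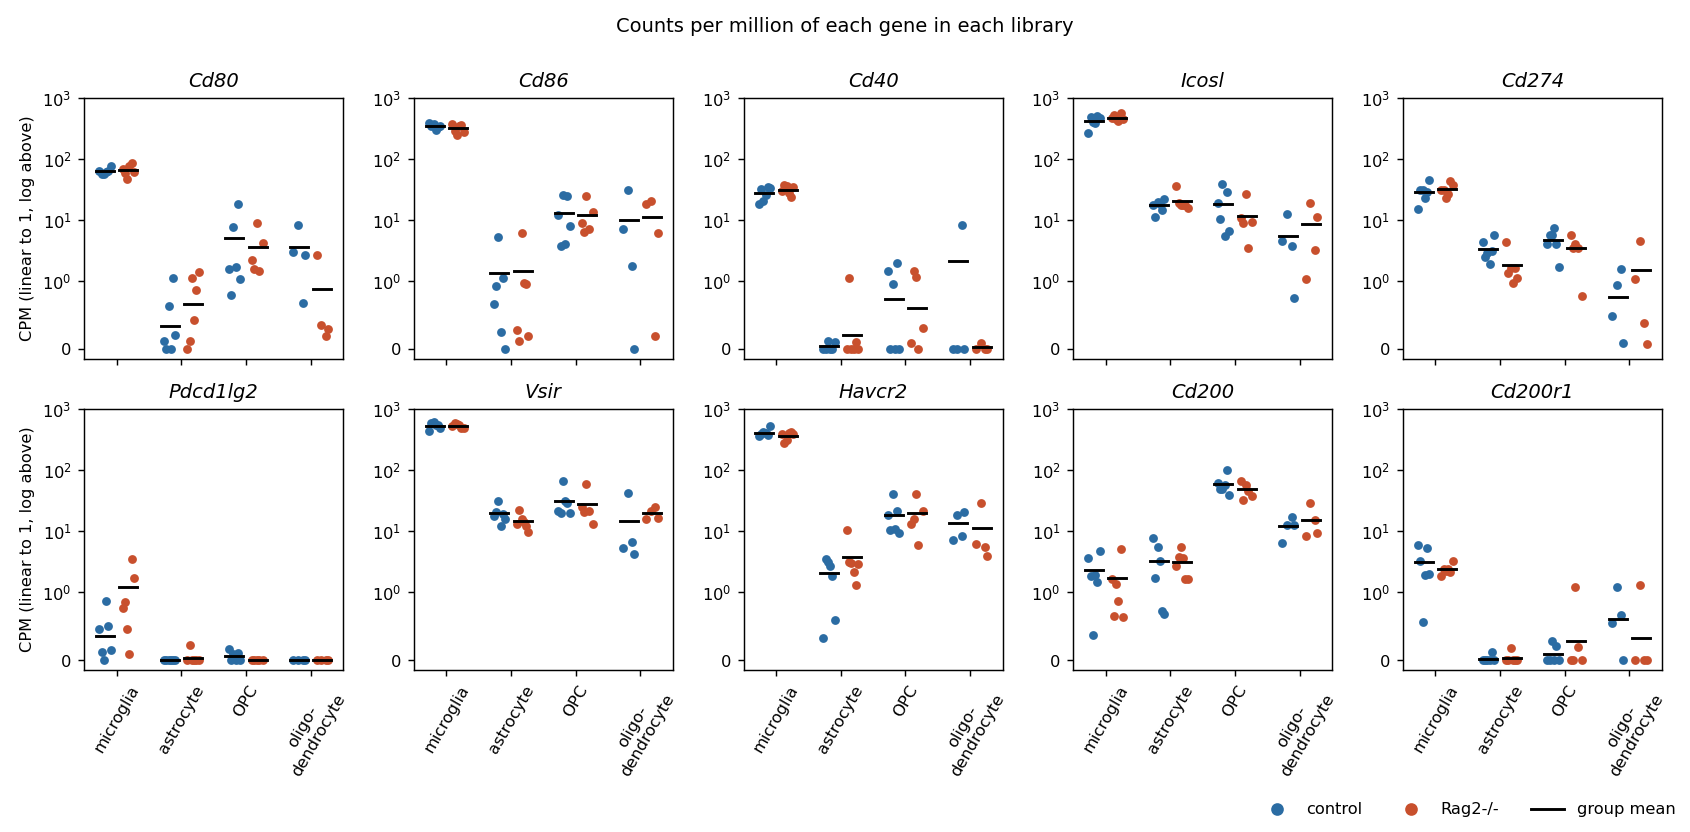
Level of each member in all 43 libraries in CPM (vertical axes, linear to 1 and logarithmic above) by cell type, with points for libraries coloured by genotype and bars for group means. Microglia held the highest level for 9 genes and OPCs for Cd200, at 32.8 to 101 CPM, and control and Rag2-/- points overlapped in every cell type where both had counts.

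Cell types were compared in 1 edgeR quasi-likelihood fit over all 43 libraries with a mean for each cell type and genotype and sex as a covariate, scaled by TMM (trimmed mean of M-values). Fold changes are averaged over both genotypes and are relative to the genes as a whole. The 9 members other than Pdcd1lg2 passed the filter on low counts, Cd200r1 through microglia alone when cell types were filtered separately, so the count of calls is no support in itself. Against astrocytes 8 of the 9 were higher in microglia (33.5% of the 21368 genes tested were) and Cd200 was lower (36.5% were). Against oligodendrocytes the same 8 were higher (34.8% of all genes) and Cd200 lower (33.2%), and against OPCs again (30.8% and 38.7%). Median log2 fold changes over all genes were close to 0 in these 3 comparisons, at -0.09, 0.09 and -0.18.

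Among the members, Havcr2 and Vsir gave the calls with the smallest adjusted p-values against astrocytes, and Vsir and Icosl against oligodendrocytes and OPCs. Havcr2 was higher in microglia by 6.87 ± 0.39 (log2, ± SE) than in astrocytes (edgeR adjusted p = 1.91e-19), 4.19 ± 0.40 than in oligodendrocytes and 4.49 ± 0.35 than in OPCs. Vsir was higher by 4.73 ± 0.28, 4.15 ± 0.32 and 4.34 ± 0.28. Cd86 differed by 7.68 ± 0.62, 4.37 ± 0.62 and 4.90 ± 0.55, Icosl by 4.30 ± 0.35, 5.19 ± 0.44 and 5.09 ± 0.38 and Cd80 by 6.75 ± 0.56, 4.24 ± 0.57 and 4.04 ± 0.48. The log2 differences of Cd40 were 8.17 ± 0.81, 6.43 ± 0.93 and 5.64 ± 0.68, and those of Cd274, the smallest against astrocytes and OPCs among the 8, were 3.34 ± 0.37, 4.03 ± 0.46 and 3.07 ± 0.37. Each of these 7 genes kept its call in all 3 comparisons when any mouse was left out. Their sizes were less stable against oligodendrocytes: without control 5 the difference of Cd40 was 10.1, and with controls alone it was 3.83. Leaving out pair 3 raised Cd86 to 8.99 against astrocytes and 5.201 against oligodendrocytes, and leaving out Rag2-/- mouse 2 raised Cd40 to 9.38 against astrocytes.

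The receptor Cd200r1 was higher in microglia by 6.08 ± 0.95 than in astrocytes and by 4.32 ± 0.84 than in OPCs, and by 1.98 ± 0.85 than in oligodendrocytes (edgeR adjusted p = 0.0368). That last value depended on single mice. It rose to 4.57 without Rag2-/- mouse 3 (edgeR adjusted p = 0.000255), 4.93 without pair 3 and 3.40 with the mouse as a block, and the call was lost without control 1 (edgeR adjusted p = 0.0894), control 6 (0.0539), Rag2-/- mouse 5 (0.0689) or 6 (0.0909), and with controls alone (log2 1.53, adjusted p = 0.175). Cd200 was lower in microglia by 4.56 ± 0.39 than in OPCs (edgeR adjusted p = 9.08e-14) and by 3.65 ± 0.39 than in oligodendrocytes (7.19e-11). Against astrocytes the difference was -0.91 ± 0.37 (adjusted p = 0.0263). It was lost without control 1 (0.0601) or 3 (0.0898) or without Rag2-/- mouse 2 (0.0583), 3 (0.0696) or 4 (0.0573), with controls alone (log2 -0.67, adjusted p = 0.293) and without pair 3 (log2 -0.57, adjusted p = 0.200).

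Among the macroglia, astrocytes had less of most members than the oligodendrocyte lineage but more Icosl. The microglia markers moved with this. Of the 8 markers 7 were lower in astrocytes than in oligodendrocytes (median log2 -2.14) and 7 than in OPCs (-1.29), and their part in the members' differences was not tested. Against oligodendrocytes 5 members were lower in astrocytes (25.7% of all genes were) and Icosl was higher (24% were). The 5 were Cd86 (-3.31 ± 0.58 on the log2 scale), Havcr2 (-2.68 ± 0.37), Cd200 (-2.75 ± 0.38), Cd80 (-2.50 ± 0.60) and Cd200r1 (-4.10 ± 0.99). Against OPCs 5 were lower (25.4% of all genes) and Icosl higher (17.1%), the 5 being Cd200 (-3.65 ± 0.37), Cd80 (-2.71 ± 0.53), Cd86 (-2.78 ± 0.55), Havcr2 (-2.37 ± 0.34) and Cd40 (-2.53 ± 0.90, edgeR adjusted p = 0.0214). The log2 difference of Icosl was 0.89 ± 0.37 against oligodendrocytes (edgeR adjusted p = 0.0419) and 0.79 ± 0.32 against OPCs (0.0458). Vsir passed the test in none of the comparisons among macroglia in the reported fit. Between astrocytes and oligodendrocytes it passed, lower in astrocytes, with no filter (edgeR adjusted p = 0.0129) and without control 1 (0.0439) or 6 (0.0403). Cd274 passed there, higher in astrocytes, in 5 alternatives: without Rag2-/- mouse 3 (log2 1.47, adjusted p = 0.0057), control 5 (1.23, 0.0266), pair 3 (1.49, 0.0135) or the oligodendrocyte library of control 5 (1.24, 0.0187), and with controls alone (1.54, 0.0244). Cd40 passed with controls alone (-5.26, 0.00855), where 1 library held all its oligodendrocyte counts.

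Several of these calls rested on single mice. That of Icosl against oligodendrocytes was lost without control 1 (edgeR adjusted p = 0.0851), control 6 (0.120) or Rag2-/- mouse 1 (0.0995) and with controls alone (log2 1.11, adjusted p = 0.0779). Against OPCs it was lost without control 1 (0.0709), control 6 (0.0868) or Rag2-/- mouse 6 (0.0743), and with controls alone (log2 0.37, adjusted p = 0.542). The Cd40 call was lost without control 1 (edgeR adjusted p = 0.0611), without Rag2-/- mouse 3 (0.0946), without pair 3 (log2 -2.23, 0.0998), with controls alone (log2 -3.55, 0.0812) and with the mouse as a block (log2 -2.15, 0.0641). The Cd80 call against oligodendrocytes was lost without Rag2-/- mouse 1 (0.0760). The Cd200r1 call was lost without Rag2-/- mouse 3 (log2 -2.44, adjusted p = 1.00) and without pair 3 (-2.12, adjusted p = 1.00). Of its 41 oligodendrocyte counts, the Rag2-/- mouse of pair 3 held 15 and the control of pair 3 held 13.

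Between oligodendrocytes and OPCs 1 of the 9 members was called, higher in oligodendrocytes (15.7% of all genes were, and 25% were lower). It was Cd200r1 at 2.34 ± 0.85 (log2, edgeR adjusted p = 0.0252), a call on 41 counts against 24 that was lost without control 1 (log2 2.24, adjusted p = 0.0514), Rag2-/- mouse 3 (log2 0.82, 0.854) or pair 3 (log2 1.01, 0.884). Cd200 and Cd274 were near the threshold on the other side. Cd200, whose CPM did not overlap between the 2 cell types, had a log2 difference of -0.90 ± 0.38 (edgeR adjusted p = 0.0528). It passed with the mouse as a block (-1.11, adjusted p = 0.0287), without the oligodendrocyte library of control 5 (-1.10, 0.0276) and with no filter (-0.94, 0.00207). Cd274 stood at -0.96 ± 0.42 (edgeR adjusted p = 0.0659). It passed without pair 3 (-1.59, adjusted p = 0.0114), without the oligodendrocyte library of control 5 (-1.42, 0.00968), with controls alone (-1.62, 0.0242) and with no filter (-1.03, 0.0177). TMM scaled oligodendrocyte levels up and OPC levels down. The count total was 1.37 to 1.91 times the TMM-scaled total in oligodendrocytes and 0.682 to 0.890 times it in OPCs. Log2 differences between these cells are therefore shifted from those in CPM.

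Microglia RNA was present in the macroglial libraries, and the members can be set beside it. Each gene's CPM in a macroglial library was divided by its mean in microglia. The 8 microglia markers stood at a median of 1.31% in astrocytes (0.874% for Cx3cr1 to 24.2% for Sall1), 4.71% in OPCs (4.13% for Tmem119 to 21.7%) and 3.98% in oligodendrocytes (3.06% to 15.02%). In astrocytes Cd86 (0.423%), Cd40 (0.406%), Havcr2 (0.752%) and Cd80 (0.776%) lay below the lowest marker. Icosl at 4.23% (2.48 to 7.90% over 12 libraries), Vsir at 3.17% (1.78 to 5.84%) and Cd274 at 8.57% (3.18 to 18.4%) lay above every marker but Sall1. Without pair 3 these were 4.24, 2.92 and 8.80%, beside a marker median of 1.06%, while Cd86 was 0.165%.

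In OPCs and oligodendrocytes most members lay near or among the markers. OPC levels of Havcr2 (4.89%), Vsir (5.53%) and Cd80 (6.91%) lay in the range of the markers, as did that of Cd274 at 13.7% (2.57 to 24.2%), or 13.3% without pair 3. Cd86 (3.81%), Icosl (3.39%) and Cd40 (2.29%) lay below the lowest marker there. The OPC mean of Cd200r1 was 6.25%, but its median was 0 and its mean without pair 3 was 1.61%, below every marker (2.97% or above). In oligodendrocytes Cd86 (3.20%), Vsir (3.19%), Havcr2 (3.17%), Cd80 (3.53%) and Cd274 (3.76%) lay in the range of the markers and Icosl at 1.57% below it. Single libraries carried several of these means: without pair 3 Cd274 was at 1.995%, Cd86 at 1.68% and Havcr2 at 2.205%, below the lowest marker at 2.24%, and Cd80 was at 2.46%. Cd40 had a mean of 3.59% and a median of 0, since control 5 alone held nearly all its counts, and Cd200r1 a mean of 16.99%, or 7.35% without pair 3. Pair 3, with the highest marker sums, also had the highest level of Cd86 in 6 of 6 macroglial groups, of Icosl and Vsir in 4, of Havcr2 in 3, of Cd80 and Cd200 in 2 and of Cd274 in 1, and of Cd40 in 0 of 4 groups above the floor. For Cd200r1 it did in each of the 3 groups that reached the floor of 3 counts. The part of microglia RNA in the macroglial values was not tested, except that Cd200 cannot be compared in this way because its OPC level was above its microglia level.

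**Figure D3:**
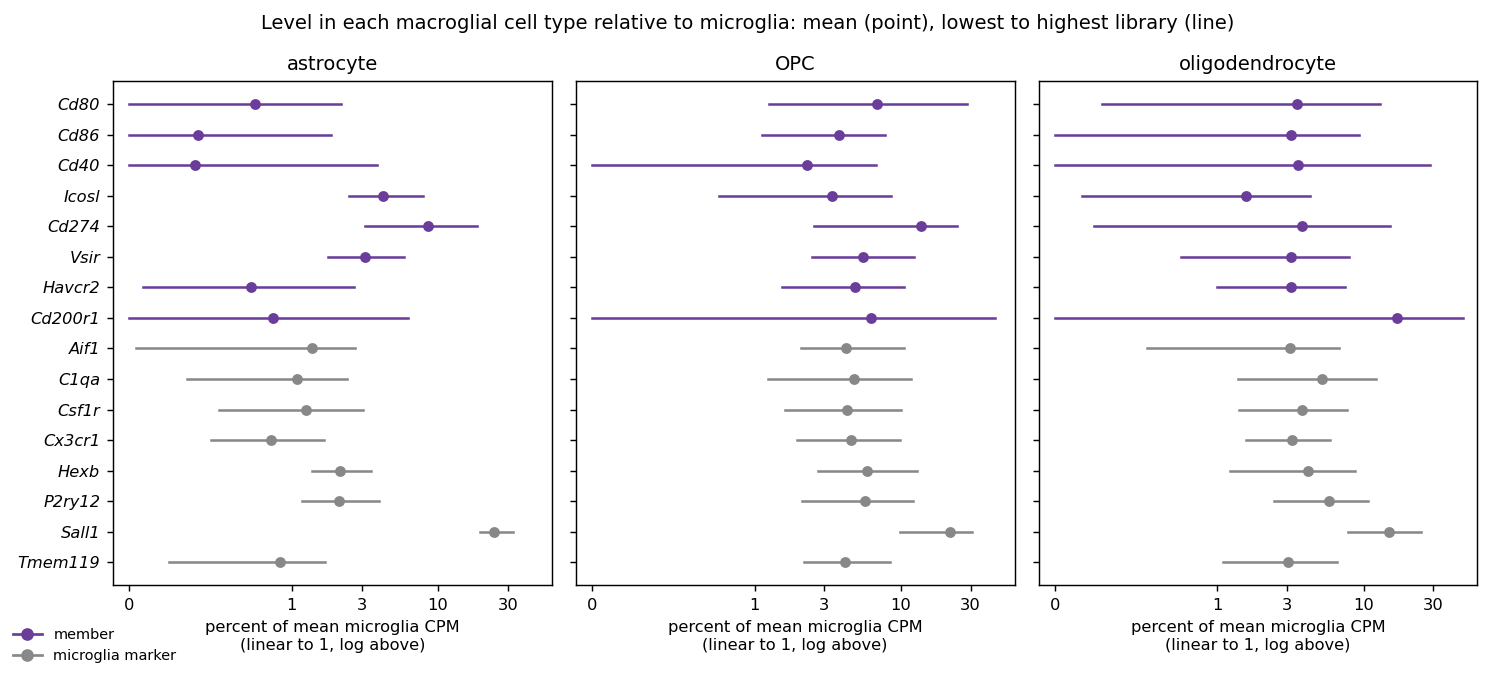
Level of 8 members and of 8 microglia markers in astrocytes, OPCs and oligodendrocytes as a percentage of each gene's mean CPM in microglia (horizontal axis, linear to 1 and logarithmic above), with points for means and lines from the lowest to the highest library. In astrocytes Icosl (4.23%), Cd274 (8.57%) and Vsir (3.17%) lie above every marker except Sall1 (24.2%), and Cd86 (0.423%) lies below them all.

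**Figure D4:**
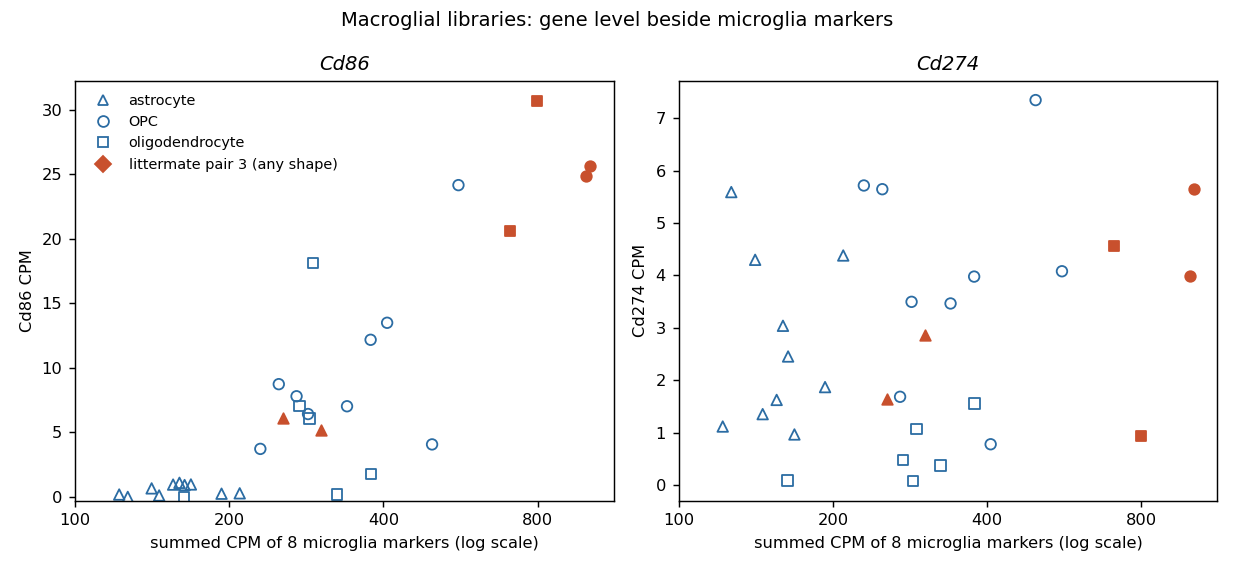
Level in CPM of Cd86 (left) and Cd274 (right) in the 31 macroglial libraries against the summed CPM of 8 microglia markers (horizontal axes, logarithmic), with shapes for cell type and filled red points for littermate pair 3. Pair 3 holds the highest Cd86 value within each group, up to 30.7 CPM, but the highest Cd274 value in only 1 of 6 groups.

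Genotype was tested within each cell type with sex in the model. None of the 9 members tested in microglia was called between Rag2-/- and control mice by edgeR, beside 0.00667% of all 15003 genes (1 gene), none had an unadjusted p under 0.05 and DESeq2 called none. The intervals show what size of difference was left possible. For Vsir the log2 difference was 0.03 (95% interval -0.18 to 0.23), for Cd86 -0.13 (-0.39 to 0.13), for Havcr2 -0.14 (-0.38 to 0.10) and for Icosl 0.17 (-0.05 to 0.39). Cd80 stood at 0.08 (-0.22 to 0.38), Cd274 at 0.12 (-0.28 to 0.52) and Cd40 at 0.20 (-0.14 to 0.54). The scarce Cd200 and Cd200r1 had wide intervals, -0.47 (-1.78 to 0.84) and -0.47 (-1.42 to 0.49). Within littermate pairs the Rag2-/- mouse had the higher CPM of Icosl and Cd40 in 5 of 6 pairs and of Cd86 and Havcr2 in 2 of 6. Pdcd1lg2 was also higher in 5 of 6, on the few counts given above, and did not pass the filter. Without a filter its edgeR log2 difference was 1.29 (adjusted p = 0.925).

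In astrocytes 5 members were tested and none was called (0.00679% of all genes, 1 of 14725). Icosl had the only unadjusted p under 0.05, 0.0289, with a log2 difference of 0.49 (0.06 to 0.92) that did not pass edgeR's adjustment (adjusted p = 1.00) and with the Rag2-/- mouse higher in 3 of 6 pairs. The library of Rag2-/- mouse 1, at 35.1 CPM, was the highest of the group. Cd274 stood at -0.64 (-1.57 to 0.29), lower in 5 of 6 Rag2-/- mice than in their littermates, and Havcr2 at 1.09 (-0.15 to 2.33). Havcr2 was lower in the Rag2-/- mouse of 4 of 6 pairs, and without Rag2-/- mouse 1, at 10.4 CPM, its difference was 0.36. In OPCs none of 8 was called (0.00592%, 1 of 16882) and none had an unadjusted p under 0.05. Cd200 there stood at -0.24 (-0.68 to 0.20), the narrowest interval of the 8, and Icosl at -0.54 (-1.60 to 0.51). In oligodendrocytes none of 7 was called and none had an unadjusted p under 0.05. There edgeR called 0% of all 13802 genes (467 had an unadjusted p under 0.05) and DESeq2 called 199 genes, none of them a member. Intervals in these 4 pairs spanned several log2 units, as for Cd80 at -1.48 (-3.62 to 0.66), lower in the Rag2-/- mouse of 4 of 4 pairs, and Cd86 at 0.82 (-1.83 to 3.47). DESeq2 called no member in any of the cell types. With the littermate pair as a block in place of sex, which differed within pair 6, no member was called either.

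**Figure D5:**
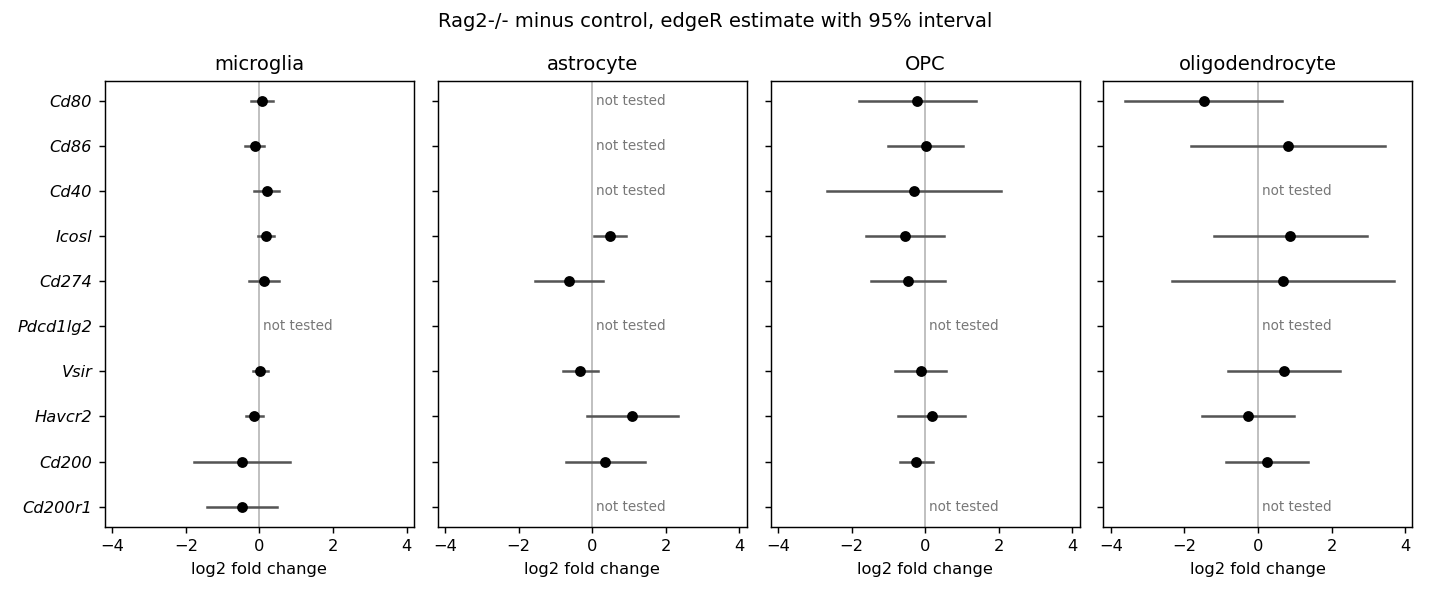
Log2 fold change of each member between Rag2-/- and control mice in each cell type (horizontal axes), with points for edgeR estimates and lines for 95% intervals. All but 1 of the intervals span 0, the exception being Icosl in astrocytes (0.49, 0.06 to 0.92), and they are narrow only for the abundant genes of microglia, such as Vsir (-0.18 to 0.23).

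Whether the genotype difference depended on cell type was tested as an interaction over the 9 members in the joint fit. No member was called by edgeR (0.248% of all genes were, 53 of 21368), and Cd40 alone had an unadjusted p under 0.05 (0.0119, adjusted p = 0.275). Leaving out the control mouse of pair 5, whose oligodendrocyte library held nearly all Cd40 counts of that cell type, gave Cd40 an adjusted p of 0.994. Vsir (edgeR adjusted p = 0.839) was called without pair 3 (adjusted p = 0.00212) or without the control mouse of pair 3 alone (0.0375), the library that lay above all Rag2-/- oligodendrocytes. Without pair 3 the log2 difference of Vsir between genotypes in oligodendrocytes was 1.67 and did not pass within that cell type (adjusted p = 1.00). With no filter on low counts 4 members were called, Cd40 (adjusted p = 1.49e-05), Cd80 (0.00634), Havcr2 (0.0137) and Icosl (0.0291), in a fit that called 1011 genes. DESeq2 was not run on the interaction.

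No member was called between male and female mice by edgeR in microglia (0.0467% of all genes, 7, were called), astrocytes (0.0407%, 6), OPCs (0.0296%, 5) or oligodendrocytes (0.0362%, 5), and DESeq2 called none. Unadjusted p-values under 0.05 were found for 1, 2, 1 and 1 of the members tested. They were Icosl in microglia (log2 -0.28, male minus female) and astrocytes (0.62), Cd200 in astrocytes (1.32), Vsir in OPCs (0.78) and Cd80 in oligodendrocytes (2.38), with adjusted p-values of 0.604 or above.

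The partners of these proteins on T cells were themselves read in microglia at low levels. Cd28, the receptor of CD80 and CD86, was at 4.65 to 11.3 CPM (median 5.73) in control and 2.38 to 9.88 (median 3.83) in Rag2-/- microglia. Icos was at 3.77 to 8.19 (median 4.98) and 2.20 to 9.90 (median 4.46), and Pdcd1, which encodes PD-1, at 0.308 to 4.5999 (median 3.04) and 0.458 to 4.41 (median 3.17). Thus RNA of these 3 receptors was read in every microglia library of mice that lack mature T cells, and the groups overlapped for each. Ctla4 had 43 counts in 6 control and 10 in 6 Rag2-/- libraries, and Cd40lg 9 and 0. Of the 5 partners 3 passed the filter of the joint fit and were higher in microglia than in each other cell type. Filtered by cell type, 3 passed in microglia, 1 in oligodendrocytes and none in astrocytes or OPCs, so that this direction was largely set by the filter. The summed CPM of 10 T cell markers in microglia was 11.1 to 23.01 in controls and 6.77 to 17.2 in Rag2-/- mice, higher in the control in 6 of 6 littermate pairs, with Cd5 at 9.27 and the defining Cd3e at 1.07 CPM on average. Their part in these receptor values was not tested.

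Ligands of the member receptors were split between cells. Selplg, which encodes PSGL-1, a partner of VISTA, was at 709 CPM in microglia and Lgals9, a ligand of TIM-3, at 171, and both were higher there than in astrocytes (log2 6.33 and 5.83), oligodendrocytes and OPCs. Igsf11, a ligand of VISTA, went the other way, with 233 CPM in astrocytes and 1.47 in microglia (log2 -7.59). Hmgb1, which has many near-identical copies in the genome and whose counts are uncertain for that reason, was lower in microglia than in astrocytes (-0.91) and was not called against the other cells. Of the 5 ligands 3 were higher in microglia in each comparison and 2, 1 and 1 lower than in astrocytes, oligodendrocytes and OPCs, with medians of 1.66, 3.55 and 2.57. The dissociation-response list, of genes such as Egr1 and Atf3 that cells switch on when tissue is taken apart, was summed at 3776 to 5678 CPM in control and 3829 to 6866 in Rag2-/- microglia. It was at 1085 to 1861 in astrocytes, and 7 of its 9 genes were higher in microglia than in astrocytes (1 was lower). Its part in the members' microglia levels was not tested.

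Other costimulatory families were also mostly higher in microglia than in astrocytes and oligodendrocytes, with exceptions. Against OPCs the B7, butyrophilin and nectin-like genes were evenly split. Of 6 further TNF superfamily costimulators 5 passed the filter of the joint fit, and these were higher in microglia than in astrocytes and oligodendrocytes. Against OPCs 4 were higher and Cd70 lower. None of the 6 passed within astrocytes or oligodendrocytes, where the direction was therefore largely set by the filter. Tnfsf9, the ligand of 4-1BB, was at 13.3 CPM in microglia, Tnfrsf14 (HVEM) at 7.38 and Tnfsf18 (GITR ligand) at 4.28. Of 7 further B7, butyrophilin and nectin-like genes 4 were tested, and 3, 3 and 2 were higher and 1, 1 and 2 lower than in astrocytes, oligodendrocytes and OPCs. The median summed CPM of the 7 was 128 in control microglia and 185 in control OPCs, and 134 and 175 in Rag2-/- mice. Pvr, a ligand of TIGIT, was at 66.1 CPM and Cd276 (B7-H3) at 49.3 in microglia, whereas Nectin3 was at 1.44 there and 90.4 in astrocytes.

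Inhibitory receptors and the signalling chains below the members followed the same cells. Of 13 further checkpoint genes 8 were tested, of which 7, 7 and 6 were higher in microglia than in astrocytes, oligodendrocytes and OPCs and 1 was lower in each, Cd47, the ligand of SIRPα, at 106 CPM in microglia and 275 in astrocytes. Sirpa itself was at 1162 CPM in microglia, Lag3 at 176 and Lilrb4a at 85.6. All 8 genes tested of CD40 signalling were higher in microglia than in each other cell type (medians 3.72, 3.61 and 3.15), among them Traf3 at 193 CPM, Nfkb2 at 164 and Relb at 147. Of 7 genes below CD200R1 and TIM-3, 6, 6 and 5 were higher and 1 lower, Fyn, a kinase at 12.97 CPM in microglia and 130 in OPCs, while Inpp5d, which encodes the phosphatase SHIP1, was at 442 in microglia. None of the genes tested in these 7 lists was called for genotype in any cell type or for the interaction by edgeR. For genotype an unadjusted p under 0.05 was found for 2 ligands in astrocytes and 1 gene of CD40 signalling in oligodendrocytes, and for the interaction for 7 genes. In microglia none of the list genes had one, and the lists' median log2 differences ran from -0.18 to 0.09, beside -0.01 over all genes.

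RNA of genes used as markers of other immune cells was also read in the microglia libraries, and its cells of origin were not tested. Border macrophage markers summed to 447 to 1022 CPM in controls and 474 to 932 in Rag2-/- mice, with Mrc1 at 361 and Pf4 at 105 on average, and 7 of 7 were detected. Dendritic cell markers summed to 132 to 194 and 135 to 185 CPM (6 of 6 detected, Zbtb46 at 93.6). B cell markers summed to 285 to 457 and 302 to 384, of which Ighm made up 352 and the defining Cd79b 4.11. The ranges of the genotypes overlapped, although the Rag2-/- mice lack mature B cells. NK cell markers were at 6.72 or below and monocyte and neutrophil markers at 88.6 or below. Border macrophages and dendritic cells also carry CD80, CD86, CD40 and PD-L2, and the part of these cells in the members' microglia levels was not tested.

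Genes whose level ran closest to each member were found by Pearson's r of TMM-scaled log2 CPM, as a description over libraries that share cell type and depth. Over all 43 libraries Cd86 ran closest to Tnf (r = 0.973) and Il1b (0.968), Cd40 to Ccr7 (0.952) and Il1bos (0.950), and Vsir to Ctsb (0.981) and Grn (0.978). Icosl was closest to Prkcd (0.969) and Ctsz (0.966), Havcr2 to Olfml3 (0.967) and Mef2a (0.966), Cd80 to Lyn (0.938) and Mir142hg (0.936), and Cd200r1 to Ccl12 (0.917) and Hcst (0.913). Cd274 was closest to Nup98 (0.916) and Zfp516 (0.912), and Cd200, alone in its distribution, to Ptprn (0.941) and Opcml (0.938). Over the 12 microglia libraries the closest genes were others throughout: Plek (0.920) and Lilrb4b (0.909) for Cd86, Rhog (0.931) and Bcl2 (0.901) for Icosl, and Ctbp1 (0.917) and Sparc (0.907) for Vsir. For Cd40 they were Kdelr2 (0.913) and Hdgf (0.854), and for Cd274 Ino80e (0.922) and Gm10654 (0.900). For Cd80 they were Tlr7 (0.885) and Zfp729b (0.884), for Cd200 4930430E12Rik (0.891) and Erlec1 (0.884), and for Cd200r1 Hsf2 (0.897) and Gzmb (0.883).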

How the data were processed

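RNA of immunopanned cortical glia was amplified with an oligo-dT and random-primed kit (Ovation V2) and sequenced as 50-base read pairs. Per the labels and the study's methods, the authors aligned reads to GRCm39 with STAR 2.7.8a and deposited raw counts per Ensembl gene from HTSeq, whose strand setting is not given in the sources used here. Rows that name no gene (33.5 to 52.0% of counts) were left out. Of 55416 identifiers 54749 matched GENCODE M39, the source of names and exon lengths, and promoter sequences were read from the GRCm39 genome.

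The deposited counts were fitted with edgeR 4.0.16 (R 4.3.3; TMM, filterByExpr with a minimum count of 10 and total of 15, quasi-likelihood test, Benjamini-Hochberg adjustment over all genes, calls under 0.05): genotype with sex within each cell type, and 1 fit over all libraries for cell types and the interaction. DESeq2 1.42.0, no filter, size factors, a littermate or mouse block, Rag2+/- controls or all controls alone, and leaving out each mouse were alternatives. Exclusions of pair 3 and of 1 oligodendrocyte library were added after seeing the data. The genotype fits of microglia and oligodendrocytes and the comparison of microglia with astrocytes were tested on simulated data, and the other fits were not. Tables and figures used Python 3.11.15, numpy 2.4.6, pandas 2.3.3 and matplotlib 3.10.9.

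Pair numbers in the labels mark littermates. The mean correlation of same-pair deviations was 0.087 in microglia, 0.135 in astrocytes, 0.089 in OPCs and 0.111 in oligodendrocytes, against -0.018, -0.026, -0.018 and -0.036 for other pairs. No pair of libraries was a copy (smallest chi-square per gene 8.18). Replicates are mice. In the fits within a cell type p-values measure the spread between mice, with the littermate pair entered only in an alternative. In the joint fit most mice gave several libraries, which were treated as independent. Its p-values for cell types and the interaction therefore do not measure the spread between mice alone, and the mouse was a block only in an alternative. With 3 counts as the floor, a library resolves 0.130 to 0.462 CPM, for counting error only.

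Members and gene lists were chosen with earlier results of these data known. All 10 members are named, and from each list at most 4 genes with the highest mean CPM in any cell type, plus the 2 genes most correlated with each member, although 1 pair of correlated genes is not reported here. Promoter sequence is printed for 2 of the 10 members. Marker genes, the partners on T cells and Egr1 and Atf3 are named as examples of their lists. Cd79b and Cd3e were named after their values were seen.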

Additional observations from a re-analysis of the deposited data

Results flagged for a closer look

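Each member was checked in each group of 4 to 6 libraries for a library whose distance to its neighbour took up most of the group's range (Dixon's test at 95%). Of 69 groups checked 18 had such a library. The test's rate of about 1 in 20 holds for independent values with a normal spread. These were CPM values, some from few counts and all from shared libraries, so the 18 cannot be set against that rate. Pair 3 supplied 9 of them. The control of pair 3 stood far above its group for Cd86 in astrocytes (5.19 CPM), Vsir in oligodendrocytes (42.5) and OPCs (66.0) and Havcr2 in OPCs (41.0). The Rag2-/- mouse of pair 3 did for Cd86 in astrocytes (6.12 CPM), Vsir in OPCs (59.6), Havcr2 in oligodendrocytes (29.1) and Cd200r1 in oligodendrocytes (1.31) and OPCs (1.21). These are the libraries with the highest microglia marker sums of their groups, and the part of that RNA was not tested.

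Among astrocytes, Rag2-/- mouse 1 stood above its group for Cd274 (4.38 CPM), Icosl (35.1) and Havcr2 (10.4), and Rag2-/- mouse 2 for Cd40 (1.13). In oligodendrocytes Rag2-/- mouse 1 was far above the others for Cd80 (2.68 CPM) and control 5 for Cd40 (8.32). In OPCs control 5 had the outlying Cd200 level (101 CPM). In microglia control 6 was far above the others for Havcr2 (523 CPM) and Rag2-/- mouse 5 for Cd200 (5.14).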

How the results depend on the processing

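Counts of called members stayed within 1.5 times of those reported under the alternatives run, except in 2 comparisons. Between oligodendrocytes and OPCs 1 member was called as reported, 4 with no filter, 2 with the mouse as a replicate block, 2 with controls alone and 4 without the oligodendrocyte library of control 5, and 0 to 4 when each mouse was left out. For the interaction it was 0 as reported, 4 with no filter, 1 without pair 3 and 0 to 1 when each mouse was left out. The littermate pair as a block changed no call for genotype. The DESeq2 interaction was not run. The cause of these shifts was not tested.

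All values that changed sign were uncalled in the reported fits. For genotype, Rag2+/- controls alone gave -0.013 for Vsir in microglia, -0.35 for Cd86 and -0.10 for Havcr2 in OPCs and -0.014 for Cd274 in oligodendrocytes (log2). The pair block gave 0.69 for Cd80 in OPCs. Without pair 3 the values were -0.12 for Cd86 and -0.049 for Havcr2 in OPCs, and -0.10 for Icosl and -0.41 for Cd200 in oligodendrocytes. Between oligodendrocytes and OPCs Cd80 stood at 0.060 with the mouse block, 0.78 with controls alone, 0.19 without pair 3 and 0.0093 without the oligodendrocyte library of control 5. Controls alone gave 1.72 for Cd40 and -0.18 for Vsir there, and Vsir was -0.0037 without pair 3. Between astrocytes and oligodendrocytes Cd40 was 2.10 without the oligodendrocyte library of control 5.

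Leaving out each mouse in turn moved genotype differences across 0 for Vsir (-0.024 to 0.055) and Cd200r1 (-0.68 to 0.0080) in microglia. In OPCs it did for Cd80 (-1.04 to 0.80), Cd86 (-0.46 to 0.47), Cd40 (-1.44 to 0.018), Vsir (-0.50 to 0.17) and Havcr2 (-0.40 to 0.55). In oligodendrocytes it did for Cd274 (-0.46 to 2.47), Icosl (-0.64 to 1.48), Havcr2 (-1.09 to 0.041) and Cd200 (-0.40 to 0.65). Among cell types, Cd40 (-2.98 to 2.28) and Vsir (-0.68 to 0.0033) crossed 0 between astrocytes and oligodendrocytes. Cd80 (-1.09 to 0.36), Cd86 (-0.0021 to 0.81), Icosl (-0.29 to 0.056) and Vsir (-0.24 to 0.43) did between oligodendrocytes and OPCs.

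Over all genes, genotype calls in microglia, astrocytes, OPCs and oligodendrocytes numbered 1, 1, 1 and 0 as reported, 9, 30, 90 and 14 with no filter and 3, 1, 5 and 199 by DESeq2. Interaction calls numbered 53 as reported, 1011 with no filter, 5 with the mouse block and 72 with size factors. Size factors moved the median of all genes between astrocytes and OPCs from -0.14 to -0.04 (log2). Low counts limited what could be read of Pdcd1lg2, Cd40 and Cd200r1 outside microglia, where most libraries held 3 counts or fewer. Cd40 was less scarce in OPCs, with 89 counts in all and none in 4 of 11 libraries.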
